A study of Mus musculus with 12 samples.

Results

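The 10 genes described here carry peptides to the cell surface on MHC class I molecules, and they were taken by symbol from tables of 56748 genes. They are the class I heavy chains H2-D1 (ENSMUSG00000073411) and H2-K1 (ENSMUSG00000061232), the light chain B2m (ENSMUSG00000060802), the peptide transporter Tap1 (ENSMUSG00000037321) and Tap2 (ENSMUSG00000024339), the loading factor Tapbp (ENSMUSG00000024308), the immunoproteasome subunits Psmb8 (ENSMUSG00000024338), Psmb9 (ENSMUSG00000096727) and Psmb10 (ENSMUSG00000031897), and the transactivator Nlrc5 (ENSMUSG00000074151). All 10 were found, and all 10 were among the 15465 genes with enough reads to be tested. RNA came from frozen liver of mice bearing pancreatic ductal adenocarcinoma (PDAC), 12 weeks of age, and was measured in 12 poly(A)-selected libraries. The 4 groups had 3 libraries each: isotype, agoCD40 (an agonistic antibody to CD40), antiIL1R1 (blockade of the IL-1 receptor IL-1R1) and Combo (both). All groups carried the tumour disease, and the labels call the controls both isotype controls and untreated; what antibody, if any, those mice were given is not known here. No strain, tumour model or dose schedule was given in the sources used here. The labels number the libraries of a group without saying that each is a separate animal, so a p-value here reflects only how far libraries of a group differ, which may be technical.

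Class I molecules display fragments of a cell's own proteins to CD8+ T cells. The proteasome cuts the proteins, the TAP transporter moves the fragments into the endoplasmic reticulum, and tapasin holds an empty class I molecule next to TAP until a peptide fits. Interferon-γ induces the immunosubunits encoded by Psmb8, Psmb9 and Psmb10, which take the place of the constitutive catalytic subunits in newly built proteasomes, and NLRC5 acts at the promoters of class I genes together with DNA-bound factors. Hepatocytes carry modest class I, while leukocytes carry much of it. CD40 sits on antigen-presenting cells, where its engagement raises their capacity to stimulate T cells.

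Total estimated counts were 18681390 to 27118712 per library, and the count behind a value of these 10 genes was never under 238. All 11 hepatocyte markers in the table were present in every group, and their summed level was 68241 to 107122 CPM, which are counts scaled to library totals after TMM normalisation. Of 10 exocrine pancreas genes, 7 to 8 were at 0 in a group. Isotype 2 and antiIL1R1 2 stood apart from the other libraries, with 14.1% and 14.8% of counts from mitochondrial transcripts against 6.23% to 12.2% elsewhere.

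Promoter letters are shown because the classical heavy chains and B2m are known to share a control module. It has a kappa-B element, then an S-X-Y block that contains a TGACG core and an inverted CCAAT box (printed as ATTGG). The letters come from RefSeq on build GRCm38.p6, a different build from the GRCm39 of the count tables. They say nothing of binding in these livers. Below are 130 bases of the H2-K1 promoter (chr17:34000354-34000483, minus strand) and of the B2m promoter (chr2:122147537-122147666, plus strand), from 150 to 21 bases upstream of the RefSeq start, with motif matches in capitals.
H2-K1: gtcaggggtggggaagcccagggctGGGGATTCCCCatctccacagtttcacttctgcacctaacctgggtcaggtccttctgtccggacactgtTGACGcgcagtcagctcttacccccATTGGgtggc
B2m: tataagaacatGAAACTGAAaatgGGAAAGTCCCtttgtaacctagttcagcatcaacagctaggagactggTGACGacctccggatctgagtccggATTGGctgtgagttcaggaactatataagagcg
The TGACG letters, in capitals, are shown with their flanks for H2-D1 (chr17:35262980-35263009, plus strand) and for Tap1 (chr17:34187457-34187486, plus strand), to set beside those in the 2 promoters above.
H2-D1: gccgggacactgaTGACGcgctggcaggtc
Tap1: gcccagagacaggTGACGacagagggtcct
Tap1 and Psmb9 are transcribed away from each other from RefSeq starts with 225 bases between them. The same TGACG letters thus lie upstream of both, at -86 from the Tap1 start and at -144 from the Psmb9 start. In Tap1 the CCAAT letters lie at -222, farther upstream than TGACG, unlike in H2-K1, H2-D1 and B2m. The Tap1 and Psmb9 windows had no kappa-B match.

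Of the 10 members, 8 have an entry in the promoter table (Tap2 and Nlrc5 are named only). Searched over 250 bases upstream on both strands, TGACG was found for 5 of the 8 (H2-D1, H2-K1, B2m, Tap1 and Psmb9), where 17.8% of 32851 windows of all genes hold it. It was also found for Psmb5 and Psmb6, both of the constitutive counterparts that have an entry. CCAAT was found for 6 of the 8, against 33.8% of all windows. The TGACG and CCAAT letters of Tap1 and of Psmb9 are the same sites, each counted for both genes. The kappa-B consensus was found for 3 of the 8 (H2-D1, H2-K1 and B2m), against 7.25%. GAAANNGAA, a core form of an interferon-stimulated response element, was found in B2m alone of the 8 and in 7.13% of all windows. Letters and spacing had to match exactly, so variants of the element were not counted. The lack of a match does not mean that H2-K1, H2-D1 or another member lacks such an element. TTCNNNGAA, also searched, was found in Psmb8 alone of the 8 and in 7.02% of all windows. H2-K1, H2-D1 and B2m each matched the first 3 of these motifs, while Psmb10 matched none of the 5.

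On the per-length scale of TPM, which relates counts to transcript length, the 10 genes covered a wide range, with the 3 subunits of the surface molecule on top. Over the 12 libraries B2m averaged 3673 ± 451 TPM (SD, n = 12), H2-K1 2440 ± 523 TPM and H2-D1 440 ± 80.5 TPM. The libraries of H2-K1 and H2-D1 did not overlap in level, nor did those of H2-D1 and Psmb10, which came next at 80.9 ± 13.4 TPM. Psmb8 averaged 53.6 ± 14.5 TPM, Tapbp 50.8 ± 15.8 TPM and Psmb9 28.5 ± 11.3 TPM. At the low end stood Tap2 with 11.4 ± 3.56 TPM, Tap1 with 10.9 ± 4.31 TPM and Nlrc5 with 7.51 ± 2.74 TPM. The libraries of all other neighbours in this order overlapped, and Tap2 was above Tap1 in only 6 of the 12.

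The CD40 agonist was tested over both states of IL-1R1 blockade, by taking the mean of agoCD40 against isotype and of Combo against antiIL1R1, so that 6 libraries with the agonist stood against 6 without it. Psmb9 rose with the agonist, from 18.9 ± 7.19 to 32.7 ± 4.90 CPM (SD, n = 6 each), and no other member passed the threshold of an adjusted p of 0.05. Tap1 came closest with 19.6 ± 5.69 CPM without and 32.7 ± 5.16 CPM with the agonist, followed by Tap2 and H2-K1. B2m, by contrast, stood at 2079 ± 560 CPM without and 2082 ± 394 CPM with the agonist. Thus 1 of 10 members was called by the quasi-likelihood test of edgeR with Benjamini-Hochberg adjustment, against a background of 2.48% of all genes tested. At an unadjusted p under 0.05 there were 4 of 10 (H2-K1, Tap1, Tap2 and Psmb9, all higher), against 16.2% of all genes. The median log2 fold change was 0.25 over the members and -0.00 over all genes tested, and 8 of the 10 members had a positive value. Scaling by total counts instead of TMM moved the median of all genes to 0.12, that of the members to 0.37 and the members called to 3 (H2-K1, Tap1 and Psmb9), with 9 positive values. With RLE scaling the member median was 0.24, with 7 positive values and 0 calls.

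**Figure D1:**
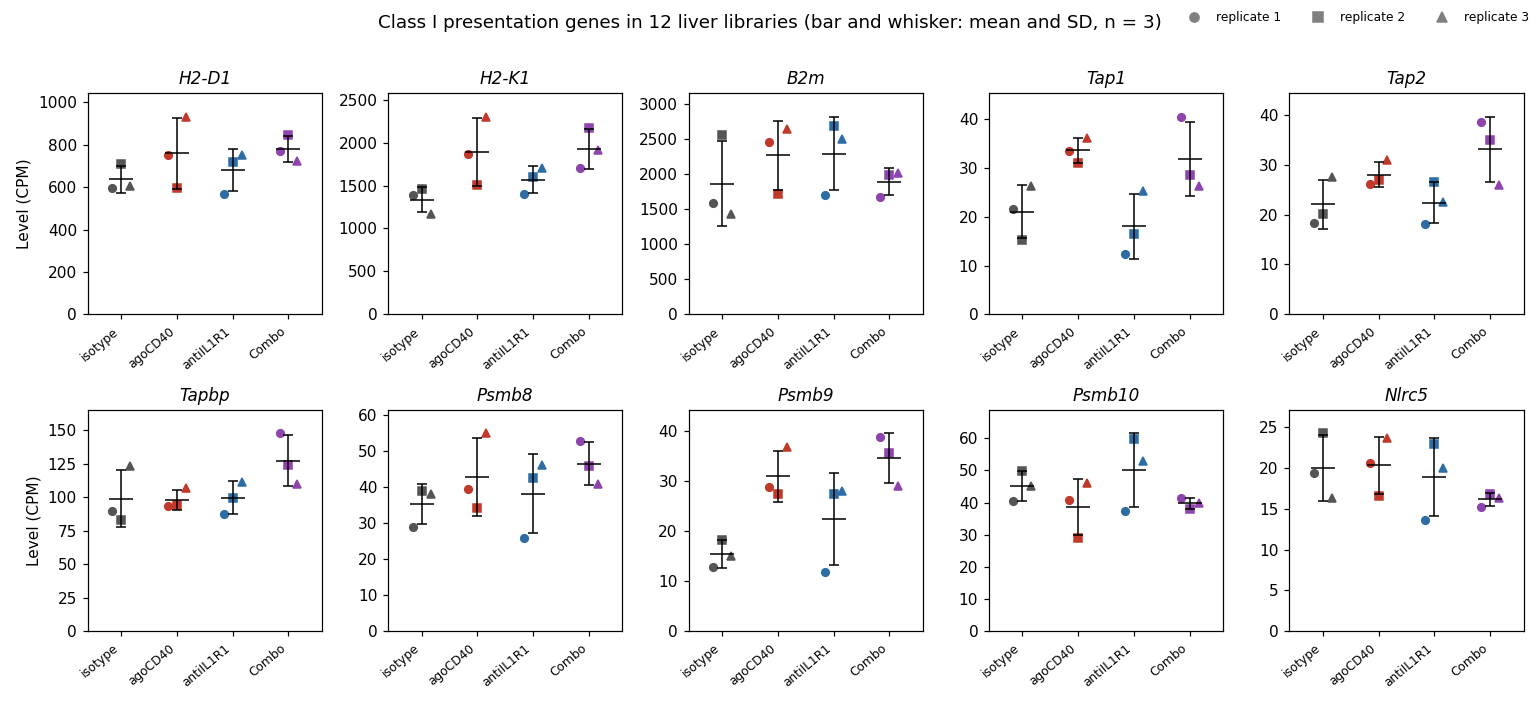
Level of the 10 genes in each of the 12 liver libraries, in CPM on an axis that starts at 0, by group. Symbols are replicates 1, 2 and 3, the bar and whisker are the mean and SD of 3 libraries. For Tap1 every agonist-treated library (agoCD40, Combo) lies above every library without the agonist, while for B2m the 4 groups overlap.

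Among the immunosubunits, Psmb9 (the β1i subunit, which replaces Psmb6) stood at 12.8, 18.2 and 15.0 CPM in isotype 1 to 3 and at 28.7, 27.3 and 36.7 CPM in agoCD40 1 to 3. It measured 11.8, 27.4 and 28.0 CPM in antiIL1R1 1 to 3, and 38.8, 35.6 and 29.0 CPM in Combo 1 to 3. Every agoCD40 and Combo library was above every isotype library, whereas antiIL1R1 2 and 3 lay at the level of the lowest agonist-treated libraries, and antiIL1R1 1 lay below all others. The log2 fold change with the agonist was 0.82 ± 0.20 (SE, 95% interval 0.39 to 1.24), 1.76-fold, with an adjusted p of 0.0471 in edgeR. That call is at the threshold: leaving out antiIL1R1 1 gave an adjusted p of 0.0322 and a log2 fold change of 0.65, while leaving out any other library gave adjusted p-values of 0.0505 to 0.13. With RLE scaling it was 0.0535. Without isotype 2 and antiIL1R1 2, the libraries of high mitochondrial share, Psmb9 had a log2 fold change of 0.97 with an adjusted p of 0.0547.

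Psmb8 (β5i, which replaces Psmb5) measured 28.9, 38.9 and 38.2 CPM in the isotype libraries, 39.6, 34.2 and 55.0 in agoCD40, 25.9, 42.6 and 46.3 in antiIL1R1 and 52.9, 46.0 and 41.0 CPM in Combo. The groups overlapped, and the agonist log2 fold change of 0.28 ± 0.17 did not pass (adjusted p = 0.427). Psmb10 (β2i, which replaces Psmb7) had the opposite sign, with 40.5, 49.7 and 45.2 CPM in isotype, 40.8, 29.1 and 46.1 in agoCD40, 37.4, 59.7 and 53.0 in antiIL1R1 and 41.4, 38.0 and 39.9 CPM in Combo. Its highest libraries were antiIL1R1 2, antiIL1R1 3 and isotype 2, and its log2 fold change was -0.28 ± 0.14 (adjusted p = 0.345). Of the 3 immunosubunits, Psmb9 passed the threshold, and the other two had values of opposite sign.

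**Figure D2:**
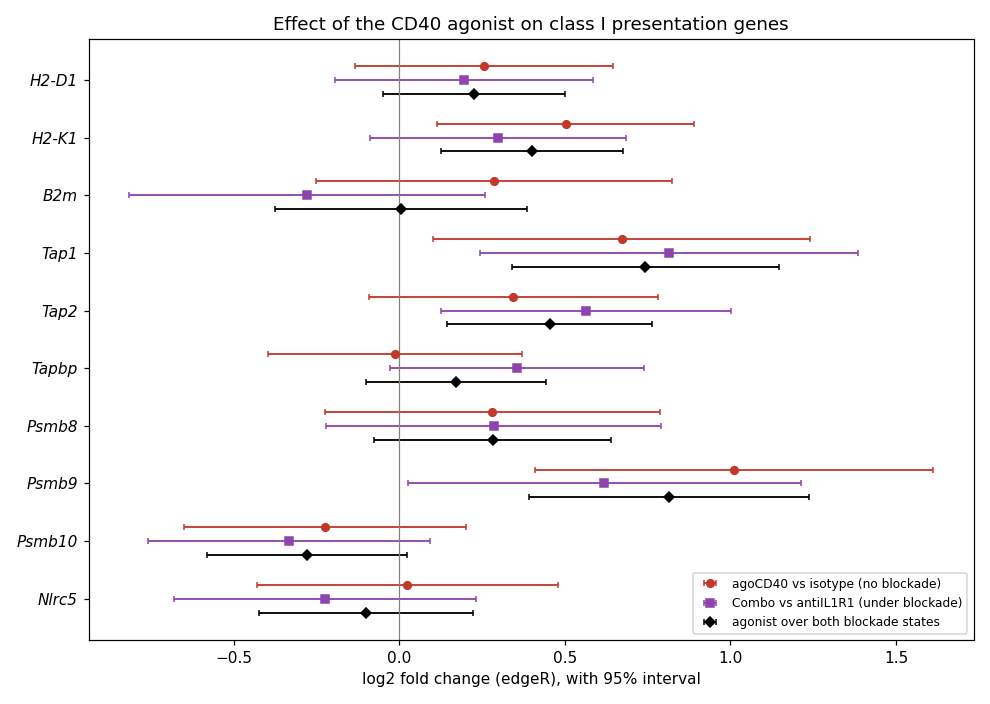
Log2 fold change of each gene with the CD40 agonist (x axis), from the fit of all 12 libraries, with 95% intervals: without blockade (circles), under blockade (squares) and as the mean of both (diamonds). The intervals of H2-K1, Tap1, Tap2 and Psmb9 for the mean of both lie above 0 before adjustment, that of B2m is centred near 0, and those of Psmb10 and Nlrc5 are centred below it.

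Each immunosubunit was then divided by the constitutive subunit whose place it takes, in TPM within the same library, which makes the value independent of scaling between libraries. Psmb9/Psmb6 was 0.0590, 0.0640 and 0.0780 in isotype, 0.137, 0.148 and 0.171 in agoCD40, 0.0564, 0.0877 and 0.121 in antiIL1R1 and 0.256, 0.226 and 0.144 in Combo. All 6 agonist-treated libraries were above all 6 others. The mean was 0.180 ± 0.0494 with and 0.0777 ± 0.0243 without the agonist (SD, n = 6), a difference of 1.23 on the log2 scale, or 2.34-fold. A two-sided exact permutation test within blockade states gave p = 0.005, the smallest its 400 arrangements can give. Adjusted over the 3 ratios this is 0.015, and adjusted over all 18 ratio tests it is 0.09.

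For Psmb8/Psmb5 the ratio was 0.236, 0.188 and 0.323 in isotype, 0.268, 0.332 and 0.390 in agoCD40, 0.217, 0.201 and 0.255 in antiIL1R1 and 0.483, 0.373 and 0.293 in Combo. The highest isotype library reached into the range of the agonist-treated ones. Means were 0.356 ± 0.0773 with and 0.236 ± 0.0487 without the agonist, a log2 difference of 0.59 with exact permutation p = 0.015, which becomes 0.0225 over the 3 ratios and 0.135 over all 18 tests. Psmb10/Psmb7 averaged 0.457 ± 0.0883 with and 0.554 ± 0.159 without the agonist, and the log2 difference of -0.25 did not pass (exact permutation p = 0.275). Within single pairs of groups, 3 libraries against 3 cannot go below an exact p of 0.1, and Psmb9/Psmb6 reached that value in agoCD40 against isotype, Combo against isotype and Combo against antiIL1R1. Psmb8/Psmb5 also reached it in Combo against antiIL1R1, with a log2 difference of 0.75 and no overlap of the libraries. The denominators also differed: with the agonist, the log2 fold change of Psmb6 was -0.43 ± 0.18 (adjusted p = 0.255), that of Psmb5 -0.31 ± 0.15 (0.328) and that of Psmb7 -0.15 ± 0.09 (0.427), none past the threshold in edgeR.

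**Figure D3:**
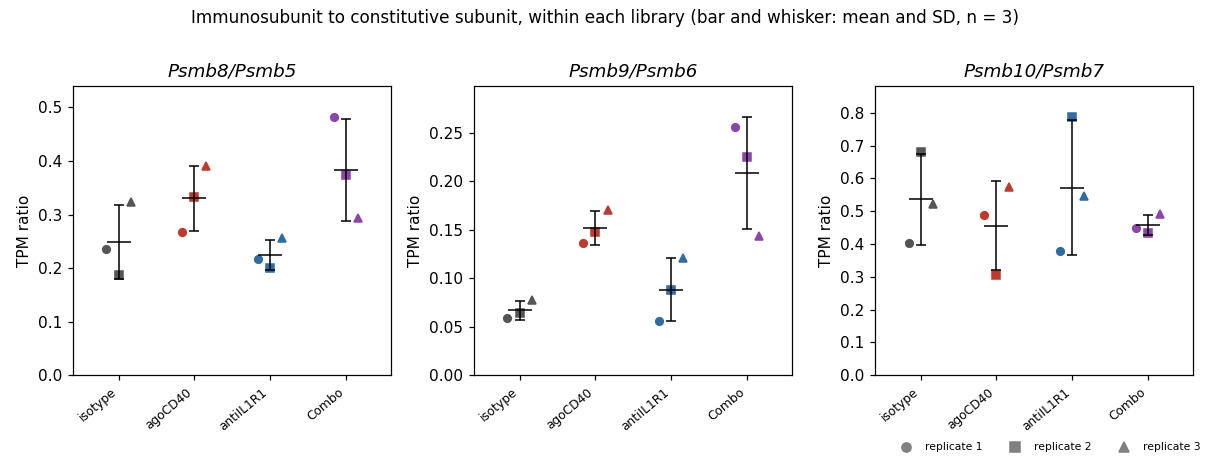
Ratio of immunosubunit to constitutive subunit in TPM, within each library, for the 3 pairs (y axes start at 0), with the mean and SD of 3 libraries. Psmb9/Psmb6 is 0.137 or higher in all agoCD40 and Combo libraries and 0.121 or lower in all others, while the groups of Psmb10/Psmb7 overlap.

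Of the peptide transporter, Tap1 measured 21.7, 15.3 and 26.3 CPM in isotype, 33.6, 31.2 and 36.1 in agoCD40, 12.4, 16.5 and 25.4 in antiIL1R1 and 40.6, 28.6 and 26.4 CPM in Combo. The lowest agonist-treated library, Combo 3, lay just above the highest of the others, isotype 3. The log2 fold change with the agonist was 0.74 ± 0.19 (95% interval 0.34 to 1.15), and the adjusted p of 0.0583 in edgeR missed the threshold. It passed without antiIL1R1 3 (0.0335) or without isotype 3 (0.0444). Tap1 reads can overlap Psmb9, since the GENCODE annotation gives the genes 212 exon bases in common on opposite strands (3.87% of Tap1 exon bases, 5.79% of Psmb9). Some GENCODE transcripts thus begin upstream of the RefSeq starts used for the promoter letters, and the positions given there hold for the RefSeq starts only. Of the 75-base stretches of the Psmb9 transcript, 10.8% occur in Tap1 on either strand, and 4.79% of those of Tap1 occur in Psmb9. No source used here says whether strand was used in the counting.

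Tap2, the partner of Tap1 in the transporter, measured 18.3, 20.2 and 27.6 CPM in isotype, 26.1, 26.98 and 30.9 in agoCD40, 18.1, 26.5 and 22.6 in antiIL1R1 and 38.5, 34.9 and 25.9 CPM in Combo. Ranges overlapped through isotype 3 and antiIL1R1 2, and the log2 fold change of 0.45 ± 0.14 had an adjusted p of 0.129. Tapbp encodes tapasin, and its level was 89.8, 83.2 and 123 CPM in isotype, 93.0, 94.4 and 106 in agoCD40, 87.0, 99.3 and 112 in antiIL1R1 and 147, 124 and 110 CPM in Combo. The Combo libraries were the highest on average, and agoCD40 lay within the isotype range. Over both states the Tapbp log2 fold change was 0.17 ± 0.13 (adjusted p = 0.538). A predicted gene on the opposite strand covers 24.9% of Tapbp exon bases, with 174 counts over the 12 libraries against 30652 for Tapbp. On the same strand, Zbtb22 shares 149 exon bases with Tapbp (4.11%) and had 5224 counts.

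H2-K1, a classical heavy chain, measured 1384, 1458 and 1169 CPM in isotype, 1870, 1510 and 2301 in agoCD40, 1396, 1604 and 1703 in antiIL1R1 and 1703, 2168 and 1915 CPM in Combo. All agoCD40 and Combo libraries were above all isotype libraries, and antiIL1R1 reached the lower agonist-treated ones. With the agonist it stood at 1911 ± 291 against 1452 ± 187 CPM, a log2 fold change of 0.40 ± 0.13 (95% interval 0.13 to 0.67) whose adjusted p was 0.132. H2-D1, the other classical heavy chain, went from 659 ± 77.5 to 770 ± 113 CPM, with overlapping libraries and a log2 fold change of 0.23 ± 0.13 (adjusted p = 0.407). Of the 75-base stretches of its transcript, 7.1% occur in 19 other genes, among them H2-K1, H2-Q7 and H2-T23, against 1.55% for H2-K1, so part of these counts could be split between class I genes.

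B2m, the light chain shared by all class I molecules, measured 1595, 2558 and 1438 CPM in isotype, 2457, 1715 and 2645 in agoCD40, 1696, 2686 and 2500 in antiIL1R1 and 1668, 1988 and 2016 CPM in Combo. Its highest libraries in CPM came from antiIL1R1, agoCD40 and isotype, and isotype 2 was well above its fellows on that scale. The log2 fold change with the agonist was 0.00 ± 0.18, with a 95% interval of -0.38 to 0.38 (adjusted p = 0.994). A change of the size estimated for Psmb9 lies outside that interval, one of the size estimated for H2-D1 does not. The sign of this value turned between -0.01 with RLE scaling and 0.13 with total-count scaling. In TPM the B2m means were 3226 in isotype, 4058 in agoCD40, 3652 in antiIL1R1 and 3756 in Combo. On that scale every agoCD40 library (3508.18 or more) lay above every isotype library (3507.53 or less), if barely. Isotype 2, the highest isotype library, stood beside 3215 and 2954 TPM in isotype 1 and 3. Isotype 2 and antiIL1R1 2, high in B2m CPM, were also the libraries with the most mitochondrial counts. The 21 alternative fits included one without these libraries and one with the mitochondrial share as covariate. Over all 21 the B2m value ran from -0.095 to 0.215, with 0 past the threshold. The cause of the B2m levels was not tested.

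Nlrc5 encodes the transactivator of class I genes and measured 19.5, 24.3 and 16.3 CPM in isotype, 20.7, 16.6 and 23.7 in agoCD40, 13.6, 22.99 and 20.05 in antiIL1R1 and 15.3, 16.9 and 16.3 CPM in Combo. The groups overlapped, and Combo had the narrowest spread. The agonist log2 fold change was -0.10 ± 0.15 (95% interval -0.42 to 0.22, adjusted p = 0.79), and its sign turned to 0.02 with total-count scaling.

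In agoCD40 against isotype, without blockade, 0 of 10 members were called by edgeR, against 0.718% of all genes. Members with an unadjusted p under 0.05 numbered 3 (H2-K1, Tap1 and Psmb9, all higher), against 10.2% of all genes. DESeq2 called 1 member, Psmb9, where it called 399 of all 15465 genes. The Psmb9 log2 fold change was 1.01 ± 0.28, 2.02-fold, with an adjusted p of 0.146. Tap1 had 0.67 ± 0.26 (adjusted p = 0.382) and H2-K1 0.50 ± 0.18 (adjusted p = 0.313). The member median was 0.28 and the median of all genes -0.02.

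Combo against isotype likewise gave 0 of 10 calls in edgeR, against 0.407% of all genes, with 4 members at an unadjusted p under 0.05 (H2-K1, Tap1, Tap2 and Psmb9, all higher) against 11.5% of all genes. DESeq2 called 1 of them, Psmb9, where it called 377 of all 15465 genes. Here the Psmb9 log2 fold change was 1.17 ± 0.28, 2.25-fold, with an adjusted p of 0.116. Tap2 had 0.58 ± 0.20 (adjusted p = 0.286), Tap1 0.59 ± 0.26 (0.416) and H2-K1 0.53 ± 0.18 (0.274). The member median was 0.38, beside -0.02 for all genes. This comparison and the one before it share the isotype libraries.

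Under blockade, in Combo against antiIL1R1, Tap1 had the highest value of the members, 0.81 ± 0.26 on the log2 scale (adjusted p = 0.207). Psmb9 followed with 0.62 ± 0.27 (adjusted p = 0.313) and Tap2 with 0.56 ± 0.20 (adjusted p = 0.239). No member was called in edgeR, 0 of 10 against 0.175% of all genes, while 3 had an unadjusted p under 0.05, against 15.3%. DESeq2 also called 0 members, where it called 486 of all 15465 genes. The B2m log2 fold change was -0.28 ± 0.25 (adjusted p = 0.608), and on log2(TPM + 1) values in limma its sign turned, to 0.04. The medians were 0.29 over the members and 0.03 over all genes, and total-count scaling moved the latter to 0.19.

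IL-1R1 blockade alone, antiIL1R1 against isotype, left 0 of 10 members called by edgeR, against 0% of all genes, and 0 at an unadjusted p under 0.05, against 3.65%. DESeq2 and limma also called 0 members. Psmb9 had the largest value, a log2 fold change of 0.55 ± 0.28 (adjusted p = 0.987), with antiIL1R1 1 below and antiIL1R1 2 and 3 above all isotype libraries. The member median was 0.10, beside -0.02 for all genes. With the agonist present, Combo against agoCD40 gave 0 of 10 calls in edgeR, against 0.00647% of all genes. Members at an unadjusted p under 0.05 numbered 0, against 6.21%. DESeq2 and limma called 0 members too, where DESeq2 called 85 of all 15465 genes and limma 1. Tapbp was the member furthest from 0 there, at 98.0 ± 7.41 CPM in agoCD40 and 127 ± 19.1 CPM in Combo (SD, n = 3), with no overlap of the libraries, a log2 fold change of 0.37 ± 0.18 and an adjusted p of 0.796.

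Taking blockade over both agonist states, 0 of 10 members were called by edgeR, against 0% of all genes, and 0 had an unadjusted p under 0.05, against 3.14%. DESeq2 and limma also called 0 members, where DESeq2 called 7 of all 15465 genes and limma 0. Member values ran from -0.21 (Nlrc5) to 0.35 (Psmb9) on the log2 scale. The interaction is the agonist effect under blockade minus that without it. It also had 0 of 10 calls in edgeR, against 0.00647% of all genes, with 0 at an unadjusted p under 0.05, against 7.51%. DESeq2 and limma called 0 members for it, where DESeq2 called 82 of all 15465 genes and limma 0. For Psmb9 the interaction was -0.39 ± 0.39 (95% interval -1.23 to 0.45) and for Tap1 0.14 ± 0.37 (-0.66 to 0.94), intervals that hold differences as large as the agonist effects themselves. B2m had the interaction furthest from 0, at -0.56 ± 0.35 (adjusted p = 0.739).

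The other genes of the pathway were read from 9 lists, for the agonist over both blockade states. Counts in these lists and in the marker lists below stand beside shares over all genes tested. These were 2.48% called by edgeR and 16.2% with an unadjusted p under 0.05. Of 16 other class I and class I-like chains tested, 1 rose and 0 fell (5 had an unadjusted p under 0.05), with a median log2 fold change of 0.30. The gene that rose was H2-Q6, a non-classical chain that shares 75-base stretches with H2-D1, at 20.8 ± 5.52 CPM in isotype, 37.5 ± 6.66 in agoCD40, 27.5 ± 5.40 in antiIL1R1 and 41.8 ± 6.29 CPM in Combo. Its log2 fold change was 0.73 ± 0.15 (adjusted p = 0.027). For H2-Q10, a secreted chain made by hepatocytes and the most abundant of the list, the log2 fold change was -0.24 ± 0.11 (adjusted p = 0.295), and H2-T23, which encodes Qa-1, had 0.14 ± 0.13 (adjusted p = 0.632). The list held both signs.

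Of the 12 partners in peptide trimming and loading, 0 rose and 0 fell (edgeR; 2 had an unadjusted p under 0.05), with a median of -0.09. The value of calreticulin (Calr) was -0.20 ± 0.13 (adjusted p = 0.501), ERp57 (Pdia3) -0.19 ± 0.12 (adjusted p = 0.489), and the trimming peptidase Erap1 0.02 ± 0.12 (adjusted p = 0.954). Of the proteasome genes, 0 of 3 constitutive catalytic subunits, 0 of 10 activators and assembly factors, 0 of 11 other subunits of the 20S core and 0 of 18 subunits of the 19S cap were called by edgeR. Their median log2 fold changes were -0.31, -0.04, -0.18 and -0.23. Of these lists 1, 0, 5 and 5 genes had an unadjusted p under 0.05, beside 16.2% of all genes tested. The interferon-inducible activator genes Psme1 and Psme2, which encode PA28α and PA28β, had values of -0.39 ± 0.19 (adjusted p = 0.334) and -0.31 ± 0.17 (adjusted p = 0.398). All 11 values of the 20S core list were negative with TMM and RLE scaling and 9 of 11 with total-count scaling, where the 4 medians were -0.19, 0.07, -0.06 and -0.12.

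**Figure D4:**
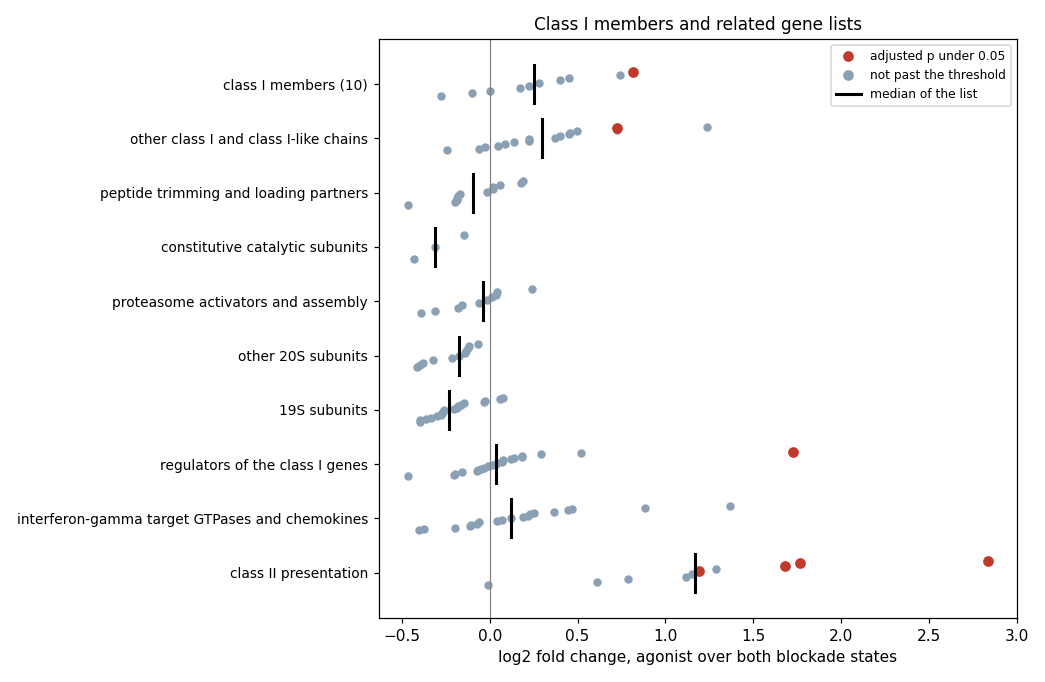
Log2 fold change with the agonist over both blockade states (x axis) for each tested gene of the 10 members and of 9 related lists. Each point is 1 gene, larger red points have an adjusted p under 0.05, and the bar is the median of the list, 0.25 for the members and 1.17 for class II presentation.

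Among 21 regulators tested, 1 rose and 0 fell (3 had an unadjusted p under 0.05), with a median of 0.04. The regulator that rose was Ciita, the class II counterpart of Nlrc5, at 2.99 ± 1.46 CPM in isotype, 7.78 ± 3.13 in agoCD40, 2.13 ± 0.987 in antiIL1R1 and 9.13 ± 2.11 CPM in Combo, a log2 fold change of 1.73 ± 0.31 (adjusted p = 0.0144). Irf1, an interferon-induced factor that acts on class I promoters, averaged 20.97 ± 2.49 CPM in isotype, 34.96 ± 7.33 in agoCD40, 27.7 ± 2.201 in antiIL1R1 and 18.3 ± 3.01 CPM in Combo. It was thus highest with the agonist alone, while Combo was below antiIL1R1. Over both states its log2 fold change was 0.07 ± 0.13 (adjusted p = 0.842), a mean of values of opposite sign. The interaction of Irf1 was -1.34 ± 0.26 on the log2 scale, with an adjusted p of 0.139 in edgeR that did not pass. Ifng, the gene of interferon-γ, had too few reads to be tested. Of 19 interferon-γ targets (GTPases and chemokines), 0 rose and 0 fell in edgeR (3 had an unadjusted p under 0.05), with a median of 0.12, and the most abundant, Iigp1, had -0.11 ± 0.11 (adjusted p = 0.662). Of 10 genes of class II presentation, 4 rose (Cd74, H2-DMb2, H2-Oa and H2-Ob) and 0 fell, with a median of 1.17. In that list 8 had an unadjusted p under 0.05. Cd74, the invariant chain, averaged 130 ± 74.1 CPM in isotype, 201 ± 61.5 in agoCD40, 102 ± 38.3 in antiIL1R1 and 344 ± 90.8 CPM in Combo, with a log2 fold change of 1.19 ± 0.28 (adjusted p = 0.0411).

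Markers of other cell types moved in the same libraries. All 10 B-cell and plasma-cell markers rose with the agonist, and their summed level was 16.2 to 26.5 CPM in isotype and 25.2 to 33.0 in antiIL1R1, against 102 to 274 CPM in agoCD40 and 156 to 203 in Combo. Pan-leukocyte markers had positive values in 10 of 10 and 0 calls (5 at an unadjusted p under 0.05), with sums of 141 to 256 CPM in isotype, 186 to 219 in agoCD40, 144 to 165 in antiIL1R1 and 220 to 257 CPM in Combo. T-cell markers had positive values in 12 of 12, with 1 call (Cd3d), 7 at an unadjusted p under 0.05 and a median log2 fold change of 1.11, against 0.56 for the pan-leukocyte list. Their sums were 3.81 to 10.5 CPM in isotype, 11.5 to 21.3 in agoCD40, 4.10 to 7.90 in antiIL1R1 and 12.8 to 15.98 CPM in Combo. Cytotoxic-cell markers were positive in 6 of 7, with 1 call (Eomes, at 0 in all isotype libraries), 2 at an unadjusted p under 0.05 and a median of 0.73. Of 10 Kupffer-cell markers 5 fell, and 2 had positive values. Kupffer-cell sums were 388 to 647 CPM in isotype, 209 to 289 in agoCD40, 274 to 381 in antiIL1R1 and 286 to 382 CPM in Combo. In Combo against antiIL1R1 this list had 5 positive and 5 negative values, and 2 markers fell. Of 11 hepatocyte markers 1 fell (Hpx, with 0 past the threshold under total-count scaling), and 6 had an unadjusted p under 0.05. Hepatocyte sums were 91428 to 107122 CPM in isotype, 69267 to 84789 in agoCD40, 95444 to 103018 in antiIL1R1 and 68241 to 74153 CPM in Combo. The part of these shifts in the class I values was not tested, and in bulk tissue more cells of a type and more RNA per cell cannot be told apart. Dendritic-cell, endothelial and biliary or carcinoma markers gave 0 calls in edgeR out of 8, 10 and 9 tested, with medians of -0.11, -0.09 and 0.11. Of them 1, 1 and 4 had an unadjusted p under 0.05. The 2 exocrine pancreas genes tested were not called.

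Across the 12 libraries the members varied together to different degrees. The correlation of each member with the mean of the other 9, as Pearson's r on standardised log2 CPM, was 0.957 for Psmb8, 0.928 for H2-D1 and 0.869 for Psmb9, but 0.335 for Nlrc5 and 0.253 for Psmb10. The tightest pairs were H2-D1 with H2-K1 and H2-D1 with Psmb8, both at 0.885. These points share libraries, depth and mitochondrial content, and the values are descriptions. The mean standardised level of the 10 members was lowest in antiIL1R1 1 (-1.35) and isotype 1 (-0.88) and highest in agoCD40 3 (1.08), so libraries of 1 group stood apart. In agoCD40 it ran from -0.51 to 1.08.

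Of 11827 other genes with a mean of at least 1 CPM, those with the most similar profile over the 12 libraries were Arl6ip5 (r = 0.939), H2-Q4 (0.931), Fam89b (0.926), Tmsb10 (0.923) and Cd52 (0.904), followed by Adcy7, Pheta1, Plp2, Trp53i13 and Tpgs1 (0.888). H2-Q4 is a non-classical class I chain, and Cd52 a surface glycoprotein of leukocytes that is also in the pan-leukocyte list. H2-Q4 averaged 40.9 CPM in isotype, 52.0 in agoCD40, 46.5 in antiIL1R1 and 49.9 in Combo, and its agonist log2 fold change of 0.23 had an adjusted p of 0.494. None of the 10 genes passed the threshold for the agonist over both blockade states in edgeR.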

How the data were processed

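Expected (estimated) counts and TPM per gene were deposited by the authors in 2 tables with 1 column per library, not scaled between libraries for the counts. The submitters' processing notes name Trim Galore 0.6.7, STAR, RSEM 1.3.1 and build GRCm39, among other tools and with no roles. The quantifier behind the counts was not given in the sources used here. Libraries were made with NEBNext Ultra II RNA after poly(A) selection, per the labels' protocols. Here the deposited expected counts were rounded and fitted in R 4.3.3 with edgeR 4.0.16 (filterByExpr, minimum count 10, TMM, a mean per group, quasi-likelihood F test, biological coefficient of variation 0.291). P-values were adjusted after Benjamini and Hochberg over 15465 genes, with a threshold of 0.05. SE are derived from the test. CPM use TMM-scaled totals. The deposited TPM, which are per length, served for levels and ratios.

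The members, the 9 pathway lists and the 10 marker lists were chosen with earlier results of these data known. Of 240 listed genes, 4 symbols were not matched (H2-T9, Nrdc, Paaf1 and Tf). All members are described; from lists, genes past the threshold, the 4 with the highest mean CPM and a fixed set of regulators and subunits could be named, and the text gives part of them. Genes of like pattern are the 10 with the highest correlation (log2(CPM + 1), mean of at least 1 CPM). Promoter letters are RefSeq GRCm38.p6; GENCODE annotation of that build gave exon overlaps. Steps were tested on simulated data. Alternatives were RLE and total-count scaling, DESeq2 1.42.0, no low-count filter, limma 3.58.1 on log2(TPM + 1) and log2(TPM + 0.1), the replicate block, only the groups compared, leaving out each library and, chosen after seeing the data, a fit that leaves out isotype 2 and antiIL1R1 2 together and one with the mitochondrial share as covariate.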

Additional observations from a re-analysis of the deposited data

How the results depend on the processing

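The agonist call over both blockade states depends on the settings, and the cause was not tested. Of the members, 1 was called as reported, 0 with RLE scaling, 0 without isotype 2 and antiIL1R1 2, 2 with DESeq2 and with no low-count filter (Tap1 and Psmb9), 3 with total-count scaling and with mitochondrial percent as covariate (H2-K1, Tap1 and Psmb9), and 0 to 1 when 1 library was left out. In agoCD40 against isotype 0 became 1 (Psmb9) with DESeq2 and with no low-count filter. In Combo against isotype 0 became 1 (Psmb9) with DESeq2, no low-count filter and the mitochondrial covariate, and in Combo against antiIL1R1 0 became 1 (Tap1) with no low-count filter. The Psmb9 value with the agonist stayed positive in all 21 alternatives (0.65 to 0.98), and so did that of Tap1 (0.62 to 0.93). B2m in Combo against antiIL1R1 went from -0.28 to 0.0431 in limma with either pseudocount.

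With the replicate block, 0 members were called for the agonist over both states (Psmb9 0.86, adjusted p = 0.0635). A check gave no sign that the numbers pair the libraries. Over 18 same-numbered pairs the median correlation was -0.026, 2 were over 0.1, and 4 of 12 libraries correlated best with their own number. With 3 libraries per group these correlations cannot exclude a pairing.

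Counts over all genes moved more. For the agonist over both states 383 genes became 894 with DESeq2, 1005 with no filter, 221 and 228 in limma, 220 with the block, 230 without isotype 2 and antiIL1R1 2, 1067 with the covariate and 142 to 373 with 1 library left out. The split of higher and lower calls was 229 and 154, against 345 and 87 with total-count scaling and 180 and 41 in limma on log2(TPM + 1). For agoCD40 against isotype 111 became 399 (DESeq2), 466 (no filter), 59 and 67 (limma), 72 (block), 28 (only the groups compared) and 256 (covariate). For Combo against isotype 63 became 377, 466, 59 and 61, 23, 9 and 292 in the same order, and 35 without isotype 2 and antiIL1R1 2. For Combo against antiIL1R1 27 became 486, 742, 46 and 44, 9, 69 and 40, and 10 without those libraries. Where 0 or 1 gene was called, DESeq2 gave 3 for antiIL1R1 against isotype, 85 for Combo against agoCD40, 7 for blockade over both agonist states and 82 for the interaction, and no filter gave 63, 197, 65 and 232. With 1 library left out, agoCD40 against isotype had 28 to 102 calls, Combo against isotype 12 to 39, Combo against antiIL1R1 4 to 36, Combo against agoCD40 0 to 4 (4 without Combo 1) and the interaction 0 to 13 (13 without isotype 1).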
